A study of Mus musculus with 28 samples.

Results

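Brains of mice in remyelination were compared with brains of naive mice, to find which transcripts had not returned to the naive level. The comparison takes every library labelled TNFR1ff and remyelination and every library labelled TNFR1ff and naive, 7 of each, which is 14 of the 28 libraries in the series. TNFR1ff mice carry a floxed gene for TNFR1, a receptor for tumour necrosis factor, on a C57BL/6 background, and serve as the controls without deletion. The design text codes the naive state as CPZ0, the peak of demyelination as CPZ5 and remyelination as CPZ6+1, and gives no unit for these codes. A further 7 TNFR1ff libraries at the peak of demyelination and 7 libraries of mgTNFR1KO mice in remyelination (Cx3cr1-CreER.Tnfr1ff, with TNFR1 deleted in microglia after tamoxifen) were fitted together with them, and their values are set beside. Cre in mgTNFR1KO mice sits under Cx3cr1, a gene of microglia and other macrophages. The sources used here do not give the age or sex of the mice, nor whether TNFR1ff mice received tamoxifen. The labels speak of samples and not of separate animals, so p-values measure the spread between these samples, which may be in part technical.

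Cuprizone, fed to mice to chelate copper, kills oligodendrocytes, the cells that wrap axons in myelin. Microglia and astrocytes respond to the damage, take up and digest myelin debris, and export its cholesterol. After withdrawal, precursor cells mature into oligodendrocytes and myelin returns within days to weeks, while reactive glia can persist for longer.

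Libraries were made from polyadenylated RNA by QuantSeq, which reads near the 3′ end of a transcript, so that levels are given as CPM, which are counts scaled to library size with TMM factors, with no correction for length. Library totals lay between 1522919 and 2150495 counts in the naive group and between 1864544 and 3137252 in the remyelination group. A floor of 3 counts then corresponded to between 0.954 and 2.39 CPM, and floors and count intervals cover counting error only. Markers of the labelled tissue were present in all 14 libraries, with at least 630 CPM of the neuronal Snap25, 2424 of the myelin gene Mbp, 58.9 of the astrocyte gene Aqp4 and 25.4 of the microglial Cx3cr1. None of 7 pituitary genes and 2 of 16 lymphocyte genes reached the level needed for a test. In naive library 1 a single gene without a symbol, ENSMUSG00000119584.1, took 25.5% of the counts, and 15862 genes were detected, the fewest of the 14. In the other 13 libraries it took between 5.84 and 14.9%. Remyelination library 1 had the lowest share of that gene among the 14 and the highest share of mitochondrial counts, 7.85%. Counts that lead the text are therefore also given without these libraries.

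Most measured transcripts were not distinguishable from the naive level. Of 12423 genes tested with edgeR, 78 passed an adjusted p of 0.05, which is 0.628%. Of these, 56 were higher (0.451% of genes) and 22 lower (0.177%) in remyelination. Of the 56, 33 belong to the lists of microglial, myeloid surface, lysosomal, complement, chemokine or reactive astrocyte genes. These lists hold between 10 and 34 tested genes each and were chosen with earlier results of these data known. Some members reached the filter's level of 5 CPM in no naive library, so this count is a description. The difference was above 2-fold for 33 of the higher and for 2 of the lower genes. A further measure is the 95% interval of the log2 fold change, which lay within ±0.5 for 5060 genes (40.7%). For the other genes not called, the interval reached beyond ±0.5. An unadjusted p under 0.05 was reached by 1294 genes (10.4%). The log2 fold change was above 0 for 6255 genes and below 0 for 6168. These shares over all tested genes are the background to the counts given for lists below. At the peak of demyelination the same fit called 249 genes against the same naive libraries (2.0%), 162 higher (1.30%) and 87 lower (0.700%). Between remyelination and the peak, 48 genes passed (0.386%), of which 25 were higher in remyelination (0.201%) and 23 lower (0.185%). The plot of all tested genes shows that the called genes on the higher side reached further from 0 than those on the lower side. Among the furthest, Clec7a, Cst7 and Itgax had 0, 1 and 3 naive counts and were tested only through groups in which they are high. This reach and the counts above 2-fold are therefore a description.

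**Figure D1:**
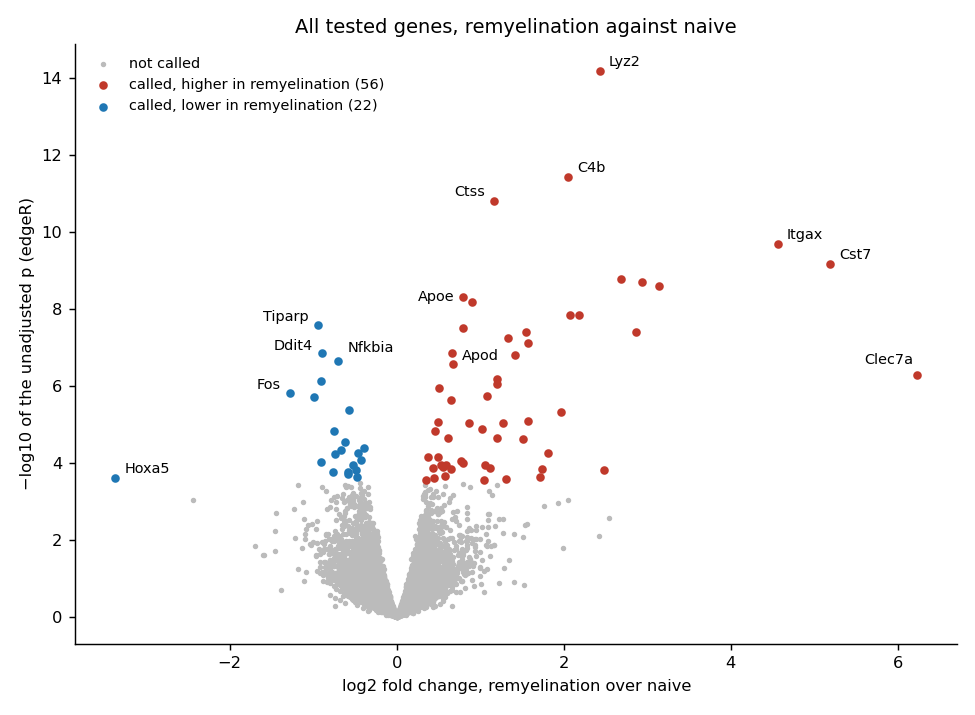
Log2 fold change of remyelination over naive (x axis) against −log10 of the unadjusted edgeR p (y axis) for 12423 genes, each point 1 gene. The 56 genes called higher are red, the 22 called lower are blue and genes not called are grey; Lyz2 stands highest at a log2 fold change of 2.43.

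The count of lower genes depended on single libraries. Without remyelination library 1 it was 90, with 64 higher, and without naive library 1 it was 15, with 42 higher. With both left out, 46 were lower and 54 higher. Of the 78 calls, 48 passed whichever 1 naive, peak or remyelination library was left out, and 30 were lost without at least 1 of them. Knockout libraries were not left out singly. Levels of cerebellar genes moved with the groups. The summed level of 17 cerebellar genes was between 2385 and 2868 CPM in naive, with a median of 2562, and between 2060 and 2486 CPM in remyelination libraries, with a median of 2366. The fit was repeated with a covariate, the mean log2 CPM of these genes in each library rather than their sum. With it 21 genes were higher and 8 lower, and 28 of the 78 calls remained. Lyz2, C4b, Ctss, Fos and Nr4a1 were among those that remained. Among the calls lost were Hmgcs1 (adjusted p = 0.593), Prr18 (0.698), Mt2 (0.387), Csf1r (0.593), Chil1 (0.517), Itgb8 (0.398), Lpl (0.215), Fcer1g (0.320) and C1qc (0.112). Tob2 (0.120), Fcgr3 (0.120), Fcrls (0.0867), Zbtb16 (0.162), Prdx6 (0.307) and Lgals3bp (0.0698) were lost as well, as were Ctsh (0.0802), Fyb (0.112), Rpl10 (0.112) and Rplp2 (0.672). The part of the cerebellar level in the 50 lost calls was not tested.

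Part of the transcripts that microglia make when they respond to damage were still above naive in remyelination. Of 35 genes of disease-associated microglia, the state that microglia take up around lost myelin and dying neurons, 30 passed the expression filter. In remyelination 16 of them rose and none fell, with a median log2 fold change of +0.83 where the median over all genes was 0.00. At the peak the median of the same 30 genes was +1.27. Of the 30, 9 reached the filter's level of 5 CPM in no naive library and all 9 rose. They were tested only through groups in which they are high, so the count and median of the list are a description. Of the 16 that reached 5 CPM in all 7 naive libraries, 3 rose and none fell, with a median of +0.34. Clec7a had no count in naive libraries, and its lower bound also lies above the median of the 30 genes. Setting Clec7a to that bound therefore could not move this median. Without naive library 1 the median of the 30 was +0.87, without remyelination library 1 +0.86 and with the cerebellar level as a covariate +0.69. In bulk tissue, fewer or more cells of a type and less or more RNA per cell cannot be told apart.

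Lyz2, the lysozyme of myeloid cells, had the smallest p. It ranged from 4.40 to 20.1 CPM (median 9.70) in naive, from 67.5 to 118 CPM (median 85.9) at the peak and from 42.7 to 77.6 CPM (median 71.0) in remyelination libraries. Every remyelination library was above every naive one, and the log2 fold change was +2.43 (95% interval 2.02 to 2.84, adjusted p = 8.36e-11). Cd68, a lysosomal glycoprotein of phagocytes, ranged from 1.39 to 3.85 CPM (median 2.53) in naive and from 6.30 to 14.5 CPM (median 10.7) in remyelination libraries. Its groups did not overlap either, at +2.08 (1.48 to 2.67, adjusted p = 1.54e-05). Mpeg1, a pore-forming protein of phagocytes, was 31.3 to 51.0 CPM at the peak and 8.0 to 25.4 CPM (median 23.1) in remyelination, against 2.91 to 11.9 CPM (median 5.09) in naive. The lowest remyelination library lay within the naive range, and the log2 fold change was +1.58 (1.09 to 2.07, adjusted p = 5.45e-05). Mpeg1 was also lower in remyelination than at the peak, by 1.01 on the log2 scale (adjusted p = 0.00497).

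Of the called members, 3 were near absent from naive brain. Clec7a, a receptor for fungal glucans that activated microglia express, had 0 counts over the 7 naive libraries, 106 at the peak and 74 in remyelination. With the naive group set to 3 counts in all, remyelination was at least 20.7-fold higher (adjusted p = 0.000266). Itgax, which encodes the integrin CD11c, had 3 naive and 109 remyelination counts, a ratio of 30.5 (95% counting interval 10.2 to 150.0, adjusted p = 6.53e-07). Cst7, the protease inhibitor cystatin F, had 1 naive and 79 remyelination counts, a ratio of 66.2 (11.5 to 2649, adjusted p = 1.71e-06). Cst7 had also come down from the peak, from between 8.30 and 17.2 CPM to between 1.07 and 7.71 CPM, a log2 difference of −1.43 (adjusted p = 0.0202).

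The other called members rose by between 0.80 and 3.14 on the log2 scale. Lgals3, a secreted galectin, went from a naive median of 1.41 CPM to 11.7 CPM, at +3.14 (adjusted p = 3.94e-06). Ccl6, the 1 gene called of 10 chemokine and cytokine genes, rose by 2.94, Cybb, the catalytic part of the phagocyte oxidase, by 2.86, and Cd52, a small surface glycoprotein, by 2.69. Ccl6 reached 5 CPM in no naive library, so the count of the chemokine list is a description as well. Gpnmb, a glycoprotein of lipid-laden phagocytes, rose by 1.72, but its adjusted p of 0.0398 was above 0.05 without any 1 of 7 libraries. Tyrobp, the adaptor that carries the signal of several myeloid receptors, ranged from 3.24 to 15.5 CPM (median 9.10) in naive and from 16.0 to 35.8 CPM (median 29.1) in remyelination libraries. The ranges of Tyrobp did not overlap, and its log2 fold change was +1.42 (0.97 to 1.88, adjusted p = 9.43e-05). Trem2, the lipid receptor that signals through Tyrobp, had overlapping ranges of 2.82 to 14.3 and 8.39 to 17.2 CPM, at +1.05 (adjusted p = 0.0456). The call of Trem2 was lost without any 1 of 15 libraries, where the largest adjusted p was 0.145.

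Surface receptors and signalling genes of myeloid cells also gave calls. Of 31 genes of Fc receptors and the myeloid surface, 16 passed the filter and 9 of these rose, with a median of +1.34 (+1.96 at the peak). Of the 16, 8 reached 5 CPM in no naive library and 6 of these rose, so this count and median too are a description. The called genes include Fcgr3, a receptor for antibodies, at +1.97, and Fcer1g, the shared signalling chain of Fc receptors, at +1.28. Ptprc, the leukocyte phosphatase CD45, rose by 1.74, Cd300c2 by 2.48 and Laptm5, a lysosomal membrane protein of blood cells, by 0.79. The calls of Ptprc, Cd300c2 and Laptm5 were each lost without some single library, with adjusted p-values up to 0.0918. Itgb2, the beta chain of leukocyte integrins, was at +0.84 (adjusted p = 0.129). Outside the lists, Irf8, a transcription factor of microglia and macrophages, rose by 1.54 with groups that did not overlap. Fyb and Apbb1ip, adaptors of integrin signalling in blood cells, rose by 1.58 and 1.06 (Apbb1ip lost without any 1 of 5 libraries, adjusted p up to 0.0873), and AU020206, a gene without a described product, by 1.81. Of 15 genes of monocytes, neutrophils and border macrophages 1 passed the filter, Mrc1. The summed level of all 15 was 7.95 to 23.02 CPM (median 12.7) in naive and 11.3 to 43.5 CPM (median 16.0) in remyelination libraries, with overlapping ranges. The highest was remyelination library 3 and the next was at 22.6 CPM. Over the 7 libraries of each group, Ccr2, the chemokine receptor of monocytes, had 0 naive and 5 remyelination counts, Ly6c2 had 2 and 0, and the neutrophil gene S100a8 had 17 and 44. For 16 lymphocyte genes, of which 2 passed the filter, the sums were 18.3 to 31.0 CPM in naive and 14.9 to 46.0 CPM in remyelination libraries, and Cd3d had no count in either group. Without remyelination library 3, 14 genes of disease-associated microglia and 8 of the myeloid surface were called, with medians of +0.80 and +1.32.

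Genes that microglia express in the undisturbed brain gave fewer calls. Of 19 homeostatic microglia genes tested, 3 rose and none fell, with a median of +0.26, where 0.451% of all genes rose. Csf1r, the receptor on which microglia depend for survival, rose by 0.62 (adjusted p = 0.00655), and Fcrls, an Fc receptor-like protein, by 1.02 (adjusted p = 0.00439). Cx3cr1, the fractalkine receptor, was between 40.3 and 62.2 CPM in remyelination and between 25.4 and 42.8 CPM in naive libraries, at +0.67 with an adjusted p of 0.0785. P2ry12, a purinergic receptor of resting microglia, was at −0.23 (−0.63 to 0.17), and Tmem119, a membrane protein of microglia, at +0.04 (−0.48 to 0.56). The direction of Tmem119 turned with the cerebellar covariate and without remyelination library 2 or 3. Mertk, a receptor for dying cells, was at +0.58 with an adjusted p of 0.0597.

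Complement and lysosomal genes were also among the higher genes. Of 11 complement genes tested 3 rose, with a median of +0.43, where 0.451% of all genes rose. Of the 11, 1 reached 5 CPM in no naive library and it rose, so this count and median are a description. Of the 4 that reached 5 CPM in all 7 naive libraries, 2 rose, with a median of +0.82. C4b, a component of the classical pathway that astrocytes and oligodendrocytes also make, ranged from 7.40 to 20.4 CPM (median 10.5) in naive, from 34.4 to 62.9 CPM (median 51.6) at the peak and from 33.6 to 56.5 CPM (median 49.3) in remyelination libraries. The remyelination range lay wholly above the naive range and overlapped that of the peak, and C4b rose by 2.05 over naive (1.63 to 2.48, adjusted p = 2.39e-08). Its difference from the peak was −0.06 (adjusted p = 0.986). C1qc, a chain of C1q, which starts the classical pathway, rose by 1.21. Of the other chains, C1qa rose by 1.31, with an adjusted p of 0.0444 that was lost without any 1 of 15 libraries, and C1qb was at +0.87 (adjusted p = 0.0597). C3ar1, the receptor for a fragment of C3, was at +1.09 (adjusted p = 0.13).

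Of 34 lysosome and cathepsin genes 7 rose and none fell, with a median of +0.26, where 0.451% of all genes rose. Of the 34, 1 reached 5 CPM in no naive library, Cd68, and it rose, so this count and median are a description. Of the 30 that reached 5 CPM in all 7 naive libraries, 4 rose, with a median of +0.22. Ctss, a protease of microglial lysosomes, was between 38.8 and 67.1 CPM (median 54.6) in naive, between 147 and 190 CPM (median 176) at the peak and between 93.9 and 141 CPM (median 125) in remyelination libraries. The 3 ranges did not overlap. Ctss rose by 1.17 over naive (0.91 to 1.42, adjusted p = 6.73e-08) and fell by 0.52 from the peak (adjusted p = 0.0246). Ctsd, the main aspartic protease of lysosomes, gave a like order of medians, from a naive median of 118 CPM and a peak median of 353 CPM to 227 CPM. It rose by 0.90 over naive (adjusted p = 8.35e-06) and fell by 0.64 from the peak (adjusted p = 0.00239). Ctsh, an aminopeptidase of lysosomes, rose by 1.2. Ctsz and Cd63, which were not called, were at +0.70 and +0.44 (adjusted p = 0.146 and 0.121).

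**Figure D2:**
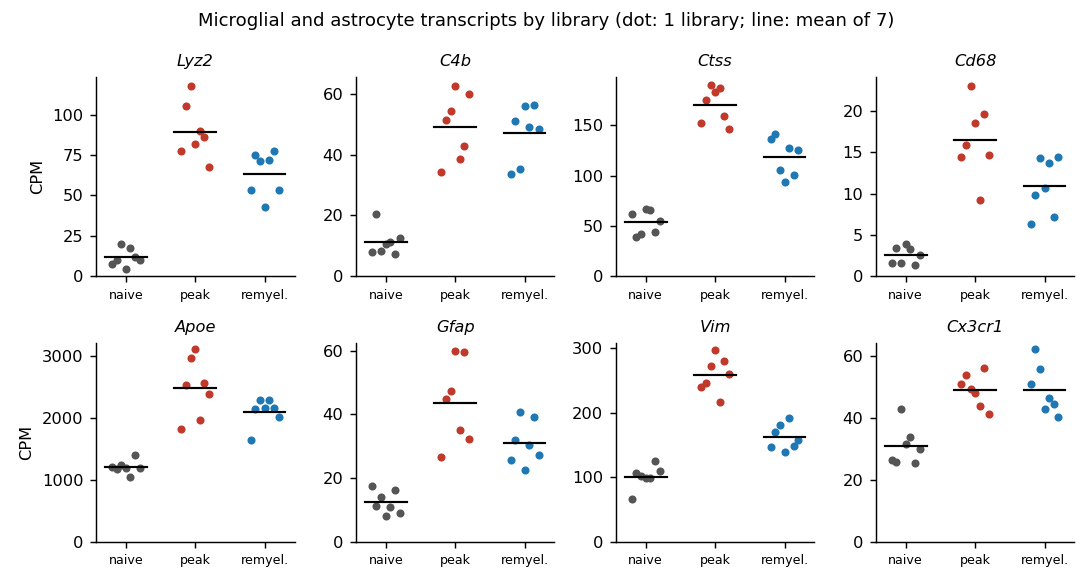
CPM (y axis, from 0) of 8 microglial and astrocyte genes in each of 7 naive, 7 peak demyelination and 7 remyelination libraries; a dot is 1 library and the line the mean of 7. Remyelination libraries of Lyz2, C4b, Ctss, Cd68, Apoe, Gfap and Vim all sit above the naive ones, while those of Cx3cr1 overlap.

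Of 22 reactive astrocyte genes tested 5 rose and none fell, with a median of +0.35, where 0.451% of all genes rose. Gfap, the intermediate filament by which reactive astrocytes are recognised, ranged from 8.26 to 17.5 CPM (median 11.2) in naive, from 26.7 to 59.9 CPM (median 44.8) at the peak and from 22.4 to 40.7 CPM (median 30.5) in remyelination libraries. Naive and remyelination ranges did not overlap, at +1.34 (0.93 to 1.74, adjusted p = 4.13e-05). Serpina3n, a secreted protease inhibitor, rose by 2.19, from a naive median of 3.03 CPM to 17.6 CPM. Vim, a further filament protein, rose by 0.68 and was lower than at the peak by 0.67 (adjusted p = 0.000172). Mt2 and C4b are the other 2 called members. Chil1, a chitinase-like protein of astrocytes that is in none of the lists, rose by 1.51 (adjusted p = 0.00699). Of 25 genes of resting astrocytes none rose and 1 fell, with a median of +0.02. The gene that fell was Itgb8, an integrin chain that releases active TGF-beta, from a naive range of 45.3 to 75.6 CPM to 25.9 to 42.4 CPM, at −0.74 (−1.05 to −0.44, adjusted p = 0.00455). Aqp4, the water channel of astrocyte endfeet, was at −0.05 (−0.31 to 0.22), a sign that turned without naive library 5 and with the cerebellar covariate. Fabp7, a fatty acid binding protein of immature astrocytes and cerebellar glia, was at −0.78 (adjusted p = 0.0894). Clu, a secreted chaperone, was at +0.43 (adjusted p = 0.0814).

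Apoe, Lpl and Apod, 3 of 17 genes of cholesterol efflux and lipid storage, were higher than naive, and Hmgcs1 and Sc5d, 2 enzymes of cholesterol synthesis, were lower. The median of the 17 genes was +0.28, and none of them fell. Apoe, the main lipid carrier of the brain, ranged from 1041 to 1395 CPM (median 1194) in naive, from 1818 to 3101 CPM (median 2533) at the peak and from 1636 to 2293 CPM (median 2150) in remyelination libraries. All remyelination libraries were above the naive range, at +0.80 (0.58 to 1.02, adjusted p = 6.99e-06). Lpl, which frees fatty acids from lipoproteins, rose by 0.87. Apod, a lipid carrier made by oligodendrocytes and astrocytes, was between 90.7 and 126 CPM (median 110) in naive, between 106 and 153 CPM (median 125) at the peak and between 138 and 210 CPM (median 166) in remyelination libraries. Apod rose by 0.66 over naive (0.45 to 0.87, adjusted p = 8.87e-05), and by 0.48 over the peak (adjusted p = 0.0124). At the peak itself its log2 fold change over naive was +0.18 (adjusted p = 0.501). Abca1, a cholesterol exporter, was at +0.49 (adjusted p = 0.13) and Apoc1, a small apolipoprotein, at +2.05 (0.89 to 3.21, adjusted p = 0.0889).

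Of 25 genes of cholesterol synthesis none rose and 2 fell, with a median of −0.15, against −0.32 at the peak. Hmgcs1, the enzyme that makes HMG-CoA, ranged from 202 to 321 CPM (median 256) in naive, from 94.0 to 140 CPM (median 122) at the peak and from 145 to 198 CPM (median 175) in remyelination libraries. The ranges were separate at all stages. Hmgcs1 was 0.57 below naive (−0.78 to −0.35, adjusted p = 0.00163) and 0.52 above the peak (adjusted p = 0.00913) on the log2 scale. Its call against naive was lost with the cerebellar covariate (adjusted p = 0.593). Sc5d, a late enzyme of the pathway, fell by 0.52, a call lost without any 1 of 5 libraries (adjusted p up to 0.0779). Idi1 and Msmo1 were not called, at −1.12 (adjusted p = 0.0945) and −0.42 (adjusted p = 0.0785). The 250 bases before the start of Hmgcs1 in RefSeq (chr13:119690101-119690350, plus strand, GRCm38.p6) are shown because sterol response elements of this gene are textbook examples, and capitals mark a match to TCACNCCAC.
Hmgcs1: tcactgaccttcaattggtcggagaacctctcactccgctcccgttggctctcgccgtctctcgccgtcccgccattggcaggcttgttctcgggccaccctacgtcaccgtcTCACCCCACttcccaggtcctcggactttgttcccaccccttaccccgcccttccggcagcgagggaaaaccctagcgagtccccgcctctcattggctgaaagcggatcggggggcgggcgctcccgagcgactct
The match starts 137 bases before the gene's start, and 1.05% of 32851 RefSeq windows of this length hold such a match on either strand. No match was found in the window of Sc5d. A match is a run of letters and was not measured as a site.

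Some genes that neurons switch on within minutes of activity were lower than naive. Of 30 immediate early genes tested none rose and 5 fell, with a median of −0.18, and 26 of the 30 had a log2 fold change below 0. Over all genes 0.177% fell, and 6168 of 12423 were below 0. At the peak of demyelination the median was +0.02. Fos, a transcription factor induced by activity, ranged from 25.5 to 51.2 CPM (median 35.9) in naive, from 12.3 to 53.3 CPM (median 32.3) at the peak and from 8.31 to 20.04 CPM (median 14.3) in remyelination libraries. No remyelination library reached the naive range, at −1.28 (−1.74 to −0.82, adjusted p = 0.000664). Fos was also lower than at the peak, by 1.07 on the log2 scale (adjusted p = 0.0124). Nr4a1, an inducible nuclear receptor, went from 56.8 to 112 CPM (median 65.7) in naive to 31.5 to 51.8 CPM (median 37.7) in remyelination libraries, again without overlap. Its log2 fold change was −0.91 (−1.22 to −0.59, adjusted p = 0.000368). Tiparp, a mono-ADP-ribosyltransferase, went from 52.5 to 68.2 CPM (median 56.7) to 21.6 to 41.8 CPM (median 31.1), at −0.94 (−1.22 to −0.66, adjusted p = 2.48e-05). Dusp1, a phosphatase that switches off MAP kinases, fell by 0.73 and Sgk1, a kinase induced by steroids and activity, by 0.99, both with ranges that overlapped those of naive.

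Members did not all move. Egr1, a transcription factor of the same kind, was 336 to 523 CPM (median 461) in naive and 307 to 545 CPM (median 407) in remyelination libraries, at −0.04 (−0.30 to 0.21). Its sign turned without naive library 7 or without remyelination library 3. Arc, a protein of active synapses, was at −0.62 (−0.95 to −0.30, adjusted p = 0.0563), Nr4a2 at −0.52 (adjusted p = 0.0761) and Btg2 at −0.67 (adjusted p = 0.32). Arc was called under 8 of 33 alternatives, DESeq2 among them, and Nr4a2 under 3. In remyelination libraries of mgTNFR1KO mice, compared with the same naive libraries, the median over the 30 genes was +0.14. Fos ranged there from 23.5 to 53.1 CPM (median 31.2) and Nr4a1 from 57.4 to 91.2 CPM (median 79.4), both overlapping the naive range. Dusp1 was 40.7 to 77.2 CPM and Arc 53.5 to 98.7 CPM in that group, while Tiparp was 33.4 to 50.1 CPM, below the lowest naive library, at −0.44 (adjusted p = 0.0579). Sgk1 was 29.9 to 61.4 CPM there and was called lower than naive in that group too, at −0.69 (adjusted p = 0.0247). The labels give no time of day or order of dissection, and the part of handling in these levels was not tested.

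Cyclic AMP response elements are known in promoters of genes of this kind, so the windows of the called genes were searched for TGACG, the core of the element, and for TGACGTCA, its full form, which holds the core on both strands. The 250 bases before the RefSeq start are shown for Fos (chr12:85473640-85473889, plus strand), Nr4a1 (chr15:101266596-101266845, plus strand) and Dusp1 (chr17:26508473-26508722, minus strand), all GRCm38.p6, with matches on either strand in capitals.
Fos: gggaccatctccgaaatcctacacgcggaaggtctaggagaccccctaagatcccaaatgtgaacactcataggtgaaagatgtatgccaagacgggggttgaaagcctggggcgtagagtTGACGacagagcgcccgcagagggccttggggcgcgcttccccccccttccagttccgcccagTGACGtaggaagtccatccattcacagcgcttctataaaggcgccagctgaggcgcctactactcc
Nr4a1: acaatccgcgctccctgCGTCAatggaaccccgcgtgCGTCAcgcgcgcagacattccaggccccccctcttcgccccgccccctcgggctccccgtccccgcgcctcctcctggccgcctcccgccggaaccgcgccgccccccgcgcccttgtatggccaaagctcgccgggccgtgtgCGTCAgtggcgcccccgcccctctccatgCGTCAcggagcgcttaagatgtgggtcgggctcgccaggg
Dusp1: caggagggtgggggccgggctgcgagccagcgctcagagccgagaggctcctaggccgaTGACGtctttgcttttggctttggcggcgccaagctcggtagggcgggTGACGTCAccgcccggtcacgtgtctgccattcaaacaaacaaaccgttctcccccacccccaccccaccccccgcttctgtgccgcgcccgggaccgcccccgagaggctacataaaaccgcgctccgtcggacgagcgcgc
Fos held 2 matches to the core, which start 129 and 66 bases before the gene's start. Nr4a1 held 4, all on the other strand, at 233, 213, 69 and 40 bases. Dusp1 held 3, of which those at 143 and 140 bases form the full element and the other starts at 191 bases. The window of Tiparp held none, and of 6 RefSeq windows of Sgk1 1 held a match. Over 32851 windows 17.8% hold the core and 1.55% the full element. These matches describe the letters of the windows only.

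**Figure D3:**
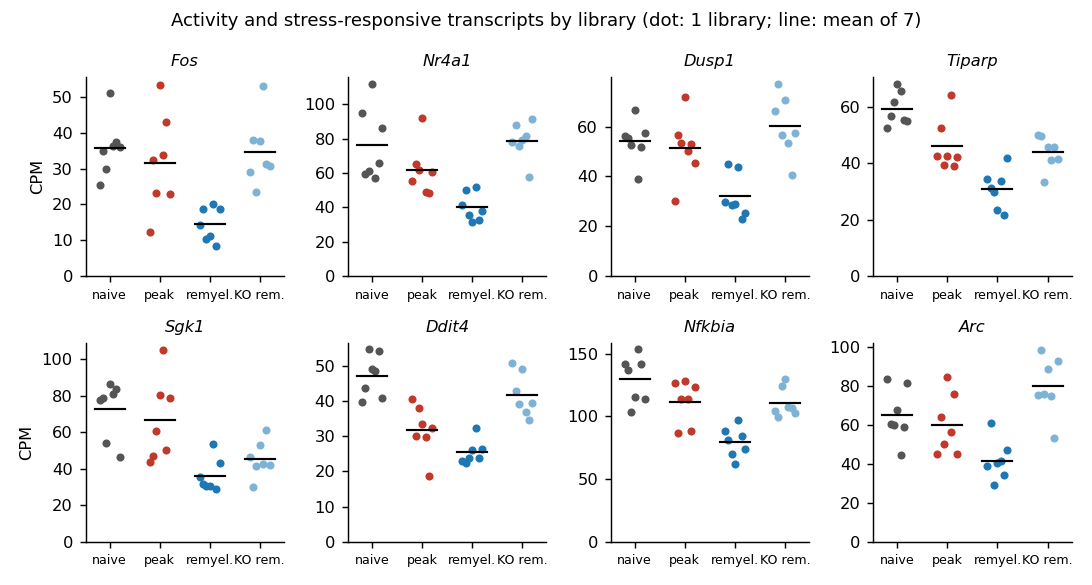
CPM (y axis, from 0) of Fos, Nr4a1, Dusp1, Tiparp, Sgk1, Ddit4, Nfkbia and Arc in 7 naive, 7 peak demyelination, 7 remyelination and 7 knockout remyelination libraries; a dot is 1 library and the line the mean of 7. Remyelination libraries of Fos lie between 8.31 and 20.04 CPM, under all naive libraries, and those of the knockout group between 23.5 and 53.1 CPM.

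Genes that respond to glucocorticoids went in both directions. Of 16 tested, 2 rose and 4 fell, with a median of −0.20, where 0.451% of all genes rose and 0.177% fell. Ddit4, an inhibitor of mTOR signalling that stress and steroids induce, went from 39.8 to 54.7 CPM (median 48.4) in naive to 22.3 to 32.4 CPM (median 23.8) in remyelination libraries, without overlap, at −0.89 (−1.18 to −0.61, adjusted p = 8.87e-05). Nfkbia, which holds NF-kB in the cytoplasm, went from 104 to 154 CPM (median 137) to 62.4 to 97.3 CPM (median 81.1), also without overlap, at −0.70 (−0.92 to −0.47, adjusted p = 0.000131). Sgk1 and Dusp1, given above, are the other members that fell. Zbtb16, a transcription factor, rose by 1.2 (0.70 to 1.71, adjusted p = 0.00655), with 18.7 to 30.5 CPM against 4.40 to 11.9 CPM, and Mt2 rose by 0.65. Nr3c1, the glucocorticoid receptor, was at −0.33 (adjusted p = 0.234). Of 20 circadian clock genes 1 fell and none rose, with a median of +0.03. This was Rora, a nuclear receptor that is also abundant in the cerebellum, at −0.42 (adjusted p = 0.0198), a call lost without any 1 of 5 libraries. Dbp, an output gene of the clock, was at +0.49 (adjusted p = 0.13).

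Interferon, antigen presentation and TNF genes gave few calls. Of 14 interferon response genes tested 2 rose, with a median of +0.22 in remyelination and +0.56 at the peak. Lgals3bp, a secreted glycoprotein, ranged from 4.40 to 16.7 CPM (median 13.6) in naive and from 21.0 to 29.95 CPM (median 26.4) in remyelination libraries, at +1.08 (0.69 to 1.48, adjusted p = 0.000753). It was lower than at the peak by 0.73 (adjusted p = 0.0386). Ifit3, which binds viral RNA complexes, rose by 1.11 (0.58 to 1.65, adjusted p = 0.0276), from 2.77 to 8.77 CPM to 6.65 to 16.0 CPM, a call lost without any 1 of 7 libraries. The window of Ifit3 (chr19:34583279-34583528, plus strand, GRCm38.p6) is shown for its interferon-stimulated response elements, searched as GAAA, then NN, then GAAA on both strands and marked in capitals.
Ifit3: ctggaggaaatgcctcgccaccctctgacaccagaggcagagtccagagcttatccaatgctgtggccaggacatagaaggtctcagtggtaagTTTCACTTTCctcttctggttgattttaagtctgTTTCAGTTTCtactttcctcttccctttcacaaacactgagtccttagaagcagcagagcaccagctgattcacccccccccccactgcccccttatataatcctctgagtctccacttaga
Its 2 matches are on the other strand and start 156 and 122 bases before the gene's start. Such a match is in 2.98% of windows, and in none of Lgals3bp. All 7 MHC genes tested had a log2 fold change above 0 and none passed (3 at an unadjusted p under 0.05). Of the 7, 1 reached 5 CPM in no naive library, and over all genes 6255 of 12423 were above 0. B2m, the light chain of MHC class I, was 74.8 to 111 CPM (median 89.9) in naive, 179 to 210 CPM (median 198) at the peak and 99.6 to 142 CPM (median 109) in remyelination libraries. It fell from the peak by 0.76 (adjusted p = 1.28e-05) and was at +0.33 over naive (0.11 to 0.55, adjusted p = 0.183). H2-K1 and H2-D1, heavy chains of MHC class I, were at +0.46 and +0.35. Of 12 TNF and NF-kB genes 1 rose and 1 fell. Tnfrsf1a, which encodes TNFR1, was 9.54 to 18.0 CPM (median 13.8) in naive and 15.6 to 28.8 CPM (median 23.8) in remyelination libraries, at +0.77 (0.41 to 1.12, adjusted p = 0.0214). That call was lost without any 1 of 6 libraries, and the gene that fell was Nfkbia.

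Genes of metal handling and antioxidant defence gave 3 calls. Mt2, a metallothionein that binds zinc and copper, ranged from 268 to 395 CPM (median 292) in naive, from 466 to 798 CPM (median 657) at the peak and from 370 to 592 CPM (median 453) in remyelination libraries. The ranges of naive and remyelination overlapped at their ends, and the rise was 0.65 (0.41 to 0.89, adjusted p = 0.000918). Its neighbour Mt1 was at +0.40 (adjusted p = 0.0989). Of 23 Nrf2-linked antioxidant genes 2 rose, with a median of +0.09. Prdx6, a peroxiredoxin of astrocytes, rose by 0.45 without overlap (adjusted p = 0.00455). Ftl1, the ferritin light chain that stores iron, rose by 0.50 (adjusted p = 0.0173, lost without naive library 5 or remyelination library 2). Nfe2l2, which encodes Nrf2 itself, was at +0.64 (adjusted p = 0.0832). Of 21 genes of the integrated stress response none rose and 1, Ddit4, fell. Ddit3, which encodes the stress factor CHOP, was at +0.39 (adjusted p = 0.367), after a rise of 0.79 at the peak. Slc7a3, an amino acid transporter of the same list, was at −0.70 (adjusted p = 0.321).

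Some transcripts of cytosolic ribosomal proteins were higher in remyelination than in naive libraries. This list was added after its values were seen. Of 83 members tested 6 rose and none fell, 79 had a log2 fold change above 0, and the median was +0.25 (+0.32 at the peak). Over all genes 0.451% rose, and 6255 of 12423 were above 0. Rpl10 ranged from 191 to 227 CPM (median 211) in naive and from 260 to 370 CPM (median 285) in remyelination libraries, without overlap, at +0.50 (0.33 to 0.68, adjusted p = 0.000495). Rpl37a rose by 0.45 without overlap, and Rplp2 by 0.50, Rpl10a by 0.56 and Rpl28 by 0.36. Calls of Rpl10a, Rpl37a and Rpl28 were each lost without some single library. Eef1d, a translation elongation factor outside the list, rose by 0.53 (adjusted p = 0.0242), a call lost without any 1 of 7 libraries (adjusted p up to 0.0744). Many ribosomal genes have near-identical pseudogenes between which counts may be divided, so these values are uncertain.

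The myelin transcripts named here had risen from the low of the peak, and none of the 21 genes of myelin proteins passed in either direction (4 at an unadjusted p under 0.05). Their median was −0.09 against naive, where it had been −0.94 at the peak, and the interval of 11 of the 21 lay within ±0.5. Mbp, the basic protein of compact myelin, ranged from 2424 to 3464 CPM (median 3051) in naive, from 1408 to 1767 CPM (median 1581) at the peak and from 2718 to 3543 CPM (median 3047) in remyelination libraries. Its log2 fold change over naive was +0.05 (−0.15 to 0.24), with a sign that turned without naive library 1, and its rise from the peak was 0.99 (adjusted p = 4.56e-09). Mal, a proteolipid of compact myelin, was at −0.20 (−0.42 to 0.01), with 213 to 277 CPM against 234 to 314 CPM, after 46.5 to 94.1 CPM at the peak.

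The genes of this list spread over both signs. Mog, on the outer surface of myelin, was at +0.05 (−0.21 to 0.30), Mag, next to the axon, at +0.03 (−0.34 to 0.39) and Cnp, of the non-compact myelin, at +0.21 (−0.01 to 0.44). The sign of Mag turned without any 1 of 6 libraries. Mobp was at −0.27 (−0.47 to −0.06, adjusted p = 0.3), Cldn11, the tight junction protein of myelin, at −0.33 (−0.57 to −0.09) and Opalin at −0.48 (−0.97 to 0.01). All of these genes had risen from the peak, by between 0.66 for Cnp and 1.80 for Mal on the log2 scale.

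**Figure D4:**
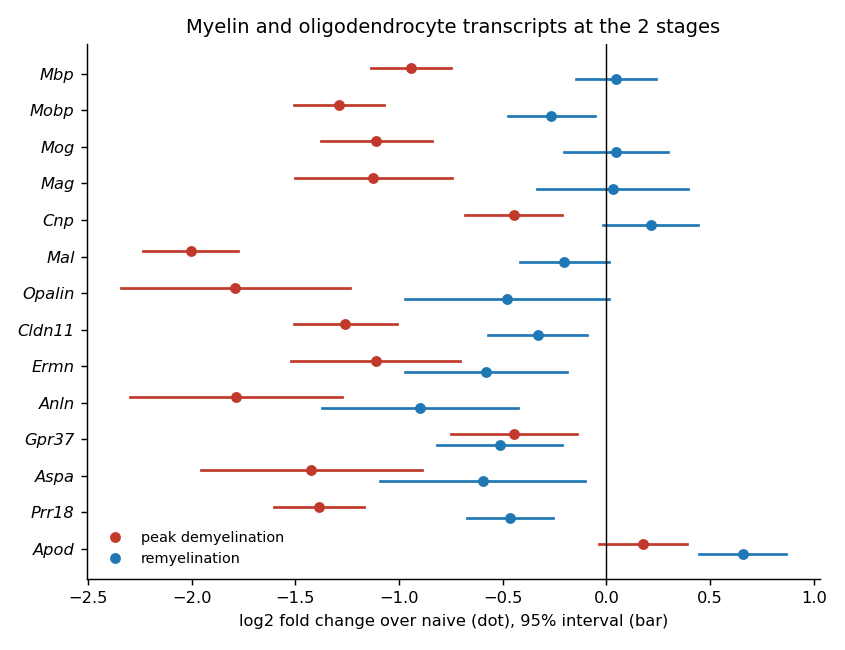
Log2 fold change over naive (x axis; dot) with its 95% interval (bar) for 14 myelin and oligodendrocyte genes at the peak of demyelination (red) and in remyelination (blue), which share the naive libraries. In remyelination Mbp sits at 0.05, Prr18 at −0.46 and Apod at 0.66, and only the last pair were called.

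Of 28 genes of late mature oligodendrocytes 1 rose, Apod, and 1 fell, with a median of −0.14 (−0.55 at the peak). An unadjusted p under 0.05 was reached by 13 of the 28, and by 10.4% of all genes. The gene that fell was Prr18, a proline-rich protein of myelinating cells, from 110 to 131 CPM (median 115) in naive to 65.5 to 101 CPM (median 81.8) in remyelination libraries, after 40.0 to 56.0 CPM (median 43.0) at the peak. The 3 ranges were separate. Prr18 was 0.46 below naive (−0.67 to −0.26, adjusted p = 0.0142) and 0.92 above the peak (adjusted p = 3.64e-07). Its call against naive was lost with the cerebellar covariate (adjusted p = 0.698). Anln, an actin-binding scaffold of mature myelin, was at −0.90 (−1.37 to −0.42, adjusted p = 0.0597), with 14.9 to 32.5 CPM in naive and 7.21 to 17.6 CPM in remyelination libraries. Gpr37, a receptor of mature oligodendrocytes, was at −0.52 (−0.82 to −0.21, adjusted p = 0.106), Ermn, a cytoskeletal protein of the outer myelin, at −0.58 (−0.97 to −0.19, adjusted p = 0.192) and Aspa, which cleaves N-acetylaspartate, at −0.60 (−1.09 to −0.10, adjusted p = 0.339). None of 23 sphingolipid and fatty acid enzymes of myelin passed (4 at an unadjusted p under 0.05), among them Elovl7 at −0.35 (adjusted p = 0.398). Enpp2, which makes lysophosphatidic acid in oligodendrocytes and choroid plexus, was at −0.25 (adjusted p = 0.423).

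None of 10 genes of newly formed oligodendrocytes passed (3 at an unadjusted p under 0.05), and their median was +0.18. Bcas1, which marks cells that are building myelin, was 63.6 to 105 CPM (median 82.4) in naive and 86.2 to 123 CPM (median 115) in remyelination libraries, at +0.40 (0.11 to 0.70, adjusted p = 0.245). Itpr2, a calcium channel of the same stage, was at +0.34 (0.03 to 0.65) and Enpp6 at −0.47 (−0.92 to −0.02), both with an adjusted p above 0.05 (0.397 and 0.441). None of 16 precursor genes passed, and none had an unadjusted p under 0.05. Pdgfra, the growth factor receptor of precursors, was at +0.04 (−0.38 to 0.47), Cspg4, the proteoglycan NG2, at +0.04 (−0.35 to 0.44) and Pcdh15 at −0.36 (−0.75 to 0.04). The signs of Pdgfra and Cspg4 turned with the cerebellar covariate.

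No gene of axons, synapses or neuropeptides was called. None of 24 genes of axons and nodes of Ranvier passed (3 at an unadjusted p under 0.05), and 22 had an interval within ±0.5. None of 29 synaptic genes passed (3 at an unadjusted p under 0.05), and 24 lay within that interval. Of 37 genes of oxidative phosphorylation, 36 did, and none passed (4 at an unadjusted p under 0.05). Nefl, the light neurofilament whose release marks axon damage, was at −0.13 (−0.31 to 0.06), Cntn1, an axonal adhesion protein, at −0.24 (−0.40 to −0.07, adjusted p = 0.215) and Gap43, a growth cone protein, at −0.30 (−0.50 to −0.10, adjusted p = 0.175). Snap25, which drives vesicle fusion, was at −0.44 (−0.70 to −0.18, adjusted p = 0.107). Among 21 neuropeptide genes none passed (2 at an unadjusted p under 0.05), but only 6 had an interval within ±0.5. Npy was at +0.56 (0.24 to 0.89, adjusted p = 0.105), with 33.3 to 41.2 CPM in remyelination and 16.7 to 31.9 CPM in naive libraries. Ndufv3 of complex I was at +0.38 and mt-Atp6, encoded in mitochondrial DNA, at −0.54 (both adjusted p = 0.106). None of 20 trophic factors (3), 24 collagen and matrix genes (2) or 16 cell cycle genes (0) passed, with the number at an unadjusted p under 0.05 in parentheses. DESeq2 called 1 trophic factor, 1 neuropeptide and 3 cerebellar genes, and no member of the other lists in which edgeR called none. The trophic factor Mertk and the cerebellar genes Car8, Neurod1 and Calb1 were also called with the mitochondrial share as a covariate. Mertk, Car8 and Neurod1 were called without remyelination library 1 too, and Mertk without naive library 1 or 2. Alternatives other than DESeq2 called at most 1 gene of myelin proteins, newly formed oligodendrocytes, synapses, oxidative phosphorylation or mitochondrial transcripts. Snap25 was called with a replicate block, with the mitochondrial share as a covariate and without remyelination library 1. No alternative called an axon, precursor, collagen or cell cycle gene. Col3a1, a fibrillar collagen, was at −1.45 (adjusted p = 0.129), with a naive range of 3.85 to 30.1 CPM that rests on naive library 2.

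**Figure D5:**
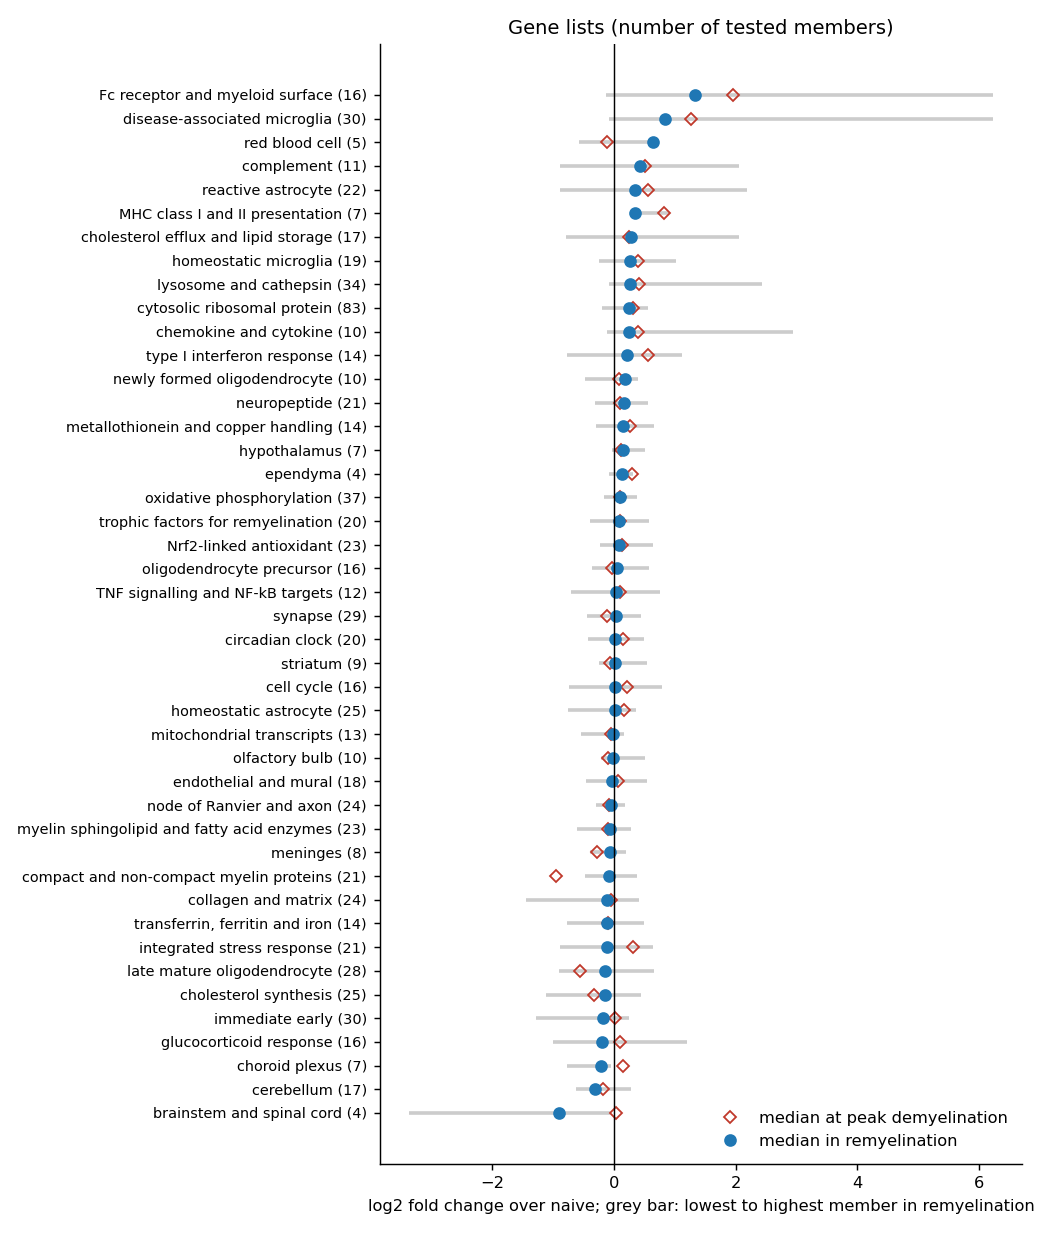
Median log2 fold change over naive (x axis) of each gene list with 3 or more tested members, in remyelination (blue dot) and at the peak of demyelination (red diamond), with a grey bar from the lowest to the highest member in remyelination; numbers in parentheses are tested members. The medians of the tested Fc receptor and disease-associated microglia genes, some of which passed the filter only outside the naive group, were 1.34 and 0.83 in remyelination, and that of myelin genes moved from −0.94 at the peak to −0.09.

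The remaining called genes belong to none of the lists. Among the higher ones, Dhrs1, a dehydrogenase, rose by 0.58 without overlap and Zfp36l2, which destabilises messenger RNA, by 0.59. Among the lower ones, Camta1, a calmodulin-binding transcription factor of neurons, went from 434 to 639 CPM in naive to 352 to 430 CPM in remyelination libraries, without overlap, at −0.39 (adjusted p = 0.0113, or 0.0562 without naive library 1). Tob2, an antiproliferative protein, fell by 0.61 (adjusted p = 0.00802), Tmem56 by 0.67, Rfx7 by 0.48, Rab5a, a GTPase of early endosomes, by 0.58 and Thap2 by 0.59. B4galt6, a lactosylceramide synthase, fell by 0.47 and 1190002N15Rik by 0.91, where naive library 1 had 56.5 CPM and the next 29.6 CPM. Of this group the calls of Dhrs1, Zfp36l2, Camta1, Tmem56, Rfx7, Rab5a, Thap2, B4galt6 and 1190002N15Rik were each lost without at least 1 single library. That of Tob2 passed whichever 1 naive, peak or remyelination library was left out, but was lost with the cerebellar covariate (adjusted p = 0.120). Across all genes, 54 had no overlap between the groups and were higher (0.435%), and 24 were lower (0.193%). Of the 78 called genes 34 were higher and 13 lower without overlap.

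Markers of other cells and regions were measured beside these results. The cerebellar list had 10 of 17 genes at an unadjusted p under 0.05 and none called, with a median of −0.30 and 15 of 17 below 0. Over all genes 10.4% reached such a p, and 6168 of 12423 were below 0. Car8, of Purkinje cells, was at −0.55 (adjusted p = 0.0597), Neurod1, of granule cells, at −0.45 (adjusted p = 0.0889) and Calb1, a calcium buffer of Purkinje and other cells, at −0.37 (adjusted p = 0.105). All 4 tested genes of brainstem and spinal cord were below 0. Hoxa5, a patterning gene of the hindbrain and cord, was called at −3.37 (−5.06 to −1.67, adjusted p = 0.0418), with 0 to 10.3 CPM in naive and 0 to 1.65 CPM in remyelination libraries. That call was lost without any 1 of 11 libraries (adjusted p up to 0.127). Slc6a5, a glycine transporter of these regions, was at −1.45 (adjusted p = 0.34) and Chat, of cholinergic neurons, at −0.35. Of 7 choroid plexus genes 1 fell, the prolactin receptor Prlr, by 0.76 (adjusted p = 0.0322, lost without any 1 of 7 libraries), while Ttr, the main protein the plexus secretes, was at −0.09 (−0.38 to 0.21) and Kl at −0.51. The share of tissue from these regions in each library is not given, and its part in the results was not tested.

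Of 8 red cell genes 5 passed the filter, of which 1 rose and none fell. Hbb-bs, a beta globin, ranged from 91.7 to 177 CPM (median 143) in naive and from 166 to 262 CPM (median 187) in remyelination libraries and rose by 0.65 (0.34 to 0.96, adjusted p = 0.0276), a call lost without any 1 of 4 libraries (adjusted p up to 0.105). Hbb-bt, Hba-a1 and Hba-a2 were at +0.72, +0.64 and +0.54, not called, and counts may be divided between the near-identical copies. The summed level of the 5 tested genes was 393 to 585 CPM in naive and 524 to 799 CPM in remyelination libraries. None of 18 endothelial and mural genes passed (6 at an unadjusted p under 0.05), nor any of 8 meningeal (1), 9 striatal (1), 7 hypothalamic (0), 10 olfactory bulb (0) or 4 ependymal genes (0). Nor did any of 13 mitochondrial transcripts (1).

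Some genes under the level needed for a test were seen almost wholly in 1 group. By a rule of at least 20 counts over one group and at most 3 over the other, 32 genes were found, Clec7a, Cst7 and Itgax among them. Ccl4, a chemokine of activated microglia, had 0 counts in naive, 57 at the peak and 32 in remyelination libraries, present in all 7 of the last group and at least 8.94-fold higher. Atp6v0d2, a subunit of the lysosomal proton pump in phagocytes, had 0, 18 and 25 counts and was at least 6.99-fold higher. Ccl3 had 1, 70 and 21 counts, a ratio of 17.6 for remyelination over naive (95% counting interval 2.83 to 728), and was at 0 in 4 remyelination libraries. Nlrp3, the sensor of an inflammasome, had 3, 14 and 23 counts, a ratio of 6.43 (1.94 to 33.4), and Cd48, an adhesion molecule of blood cells, 1, 56 and 21. On the lower side 5 genes were found, Kcnrg, with 22 naive and 2 remyelination counts, and 4 predicted genes. Some such counts come from few libraries, as for Hist1h2ao, whose 144 remyelination counts lay in 2 libraries.

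Remyelination libraries of mgTNFR1KO mice are set beside here without a test between the groups. Lyz2 was 49.5 to 89.7 CPM in that group, C4b 27.2 to 65.8 CPM, Ctss 97.7 to 158 CPM, Apoe 1945 to 2975 CPM and Gfap 28.3 to 55.2 CPM, each wholly above the naive range. Clec7a ranged there from 0 to 18.7 CPM (median 3.49). Cx3cr1, whose locus carries the Cre in these mice, was 10.4 to 44.3 CPM (median 26.8) in that group and 40.3 to 62.2 CPM (median 46.4) in TNFR1ff remyelination libraries. Hmgcs1 was 129 to 216 CPM and Prr18 79.8 to 109 CPM.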

How the data were processed

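Per the file headers, the deposited tables hold RSEM expected counts per gene, which are the authors' estimates of reads and are not normalised. The build GRCm39 and the tools STAR, RSEM, cutadapt, FastQC and edgeR are named per the submitters' processing notes, without versions, settings or strand. Reads of overlapping genes or near-identical copies may be divided between them. Expected counts were rounded to whole numbers. Symbols were matched by Ensembl identifier for 52081 of 55414 genes, and genes without one held 10.76% of counts.

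All 28 libraries entered a single edgeR fit (edgeR 4.0.16, R 4.3.3) with TMM factors, filterByExpr and 4 group means. The quasi-likelihood test was adjusted by Benjamini-Hochberg over 12423 genes, a gene was called below 0.05, and intervals are 95% intervals. The common biological coefficient of variation was 19.5%. Rises and falls are on the log2 scale. The fit was tested on simulated data.

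Named genes are every gene called, up to 3 uncalled genes per list by p, a set of standard markers, and genes under the filter with at least 20 counts in one group and at most 3 in the other. The 32 biology lists, 14 lists of other cells and regions and 1 added list, and the members compared, were chosen with earlier results of these data known. Lists are described by counts and medians. Values of some genes that the rule names are not reported here, although these genes remain in the fit and the counts. Sequences are from RefSeq on GRCm38.p6, while the tables hold no coordinates. Replicate numbers did not pair naive with remyelination samples, with correlations of same-numbered deviations between −0.131 and 0.092. The closest pair of replicates differed by a chi-square of 2.53 per degree of freedom, so none was a duplicate. Alternatives were other scaling, filters, covariates, a replicate block, DESeq2 1.42.0 and leaving out libraries.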

Additional observations from a re-analysis of the deposited data

Results flagged for a closer look

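In 31 of 284 groups of 7 libraries, 1 library stood apart from the other 6 by Dixon's test at its 95% critical value, where chance flags about 1 in 20. Of these, 8 were naive library 1. It held 639 CPM of Camta1, with the next library at 511 CPM, 56.5 of 1190002N15Rik, 44.5 of Rpl10a, 97.8 of Nr4a2, 32.6 of P2ry12, 12.7 of Chat, 2424 of Mbp and 1.59 of Itgax. It was the highest of its group in all of these but Rpl10a and Mbp, where it was the lowest. Naive library 2 was highest for C4b (20.4 CPM), Col3a1 (30.1), Gap43 (228) and H2-K1 (30.6) and lowest for C1qb (4.85). Other naive libraries stood apart for Cst7 (library 5, 0.470 CPM, the others at 0), Laptm5 and Eef1d (library 7, 34.9 and 53.6), Slc7a3 (library 4, 5.504) and Tmem119 (library 3, 12.4).

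Among remyelination libraries, library 1 was highest for Rora (274 CPM) and Neurod1 (168), which are abundant in the cerebellum, and lowest for Zfp36l2 (57.9). Library 2 was highest for Irf8 (32.5) and Rpl37a (549), and library 3 for Hoxa5 (1.65). Library 4 was highest for Ctsh (27.7), library 5 for Ddit4 (32.4) and Slc6a5 (5.73), and library 6 for C1qc (54.9) and Fcrls (21.1). Library 7 was lowest for H2-K1 (12.4) and highest for Elovl7 (29.4). Among the called genes, the calls of Camta1, 1190002N15Rik and Rpl10a were lost without naive library 1 and that of Rpl37a without remyelination library 2. The other calls passed without the library named here, although some were lost without others.

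For 24 of the named genes the change from naive differed between remyelination and the peak of demyelination by the edgeR test of that difference, in which the naive libraries drop out. The value in remyelination minus that at the peak was below 0 for Ctss (−0.52), Cst7 (−1.43), Ctsd (−0.64), Mpeg1 (−1.01), Vim (−0.67), Lgals3bp (−0.73) and B2m (−0.76), which were higher at the peak. It was also below 0 for Tiparp (−0.57), Nfkbia (−0.48), Fos (−1.07) and Sgk1 (−0.87), which were lower in remyelination than at either other stage. Myelin genes gave positive values, with Mal at 1.80, Opalin at 1.31, Mog at 1.16, Mag at 1.15, Mobp at 1.02, Mbp at 0.99, Cldn11 at 0.93, Prr18 at 0.92 and Cnp at 0.66. Hmgcs1 (0.52) lay between its peak and naive levels, while Apod (0.48), Hba-a2 (0.83) and Hba-a1 (0.91) were higher in remyelination than at the peak.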

How the results depend on the processing

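The count of 56 higher and 22 lower genes was recomputed under 33 alternatives, of which 2 were chosen after seeing the data (a filter at 20 CPM, and naive and remyelination libraries 1 left out together). Of the 78 calls 20 passed under every one, Lyz2, C4b, Ctss, Fos and Nr4a1 among them. A further 8 passed wherever they had a value and 50 were lost under at least 1. No called gene changed direction where it had a value. Some genes that the main fit did not call were called under alternatives. These were Anln and Mertk under 9, Arc under 8, C1qb, Clu and Car8 under 7 and Fabp7 under 5, among others. The planned filter at 5 CPM kept the same 12423 genes. With the mitochondrial share as a covariate 86 were higher and 89 lower, and at the peak 244 and 201. With the cerebellar level as a covariate 21 were higher and 8 lower, and with both libraries 1 left out 46 were lower. DESeq2 called 63 lower genes, and 38 lower genes between remyelination and the peak. With a replicate block 74 were lower, and 140 at the peak. No naive library correlated best with the remyelination library of its own number, and the other groups were not compared this way. Whether the numbers follow a batch was not tested. Without 1 naive, peak or remyelination library, the higher genes ranged from 42 to 64 and the lower from 15 (naive library 1) to 90 (remyelination library 1). At the peak the lower genes ranged from 50 to 128, and between the stages from 13 to 31. The cause of these shifts was not tested. Fewer libraries also give fewer degrees of freedom.

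Signs turned only for genes near 0 that were not called. With the cerebellar covariate Nefl was at 0.0033, Ttr at 0.083, Aqp4 at 0.13, Cspg4 at −0.12, Pdgfra at −0.19, Tmem119 at −0.0045 and Mag at −0.10. With naive and knockout libraries 1 left out Mbp was at −0.0032, Cspg4 at −0.024 and Pdgfra at −0.026. With naive and remyelination libraries 1 left out Mbp was at −0.021 and Egr1 at 0.0010. Without 1 library, Ttr ranged from −0.20 to 0.014, Mbp from −0.0034 to 0.083, Aqp4 from −0.14 to 0.00047, Egr1 from −0.12 to 0.017 and Cspg4 from −0.025 to 0.21. Pdgfra ranged from −0.028 to 0.17, Tmem119 from −0.13 to 0.16 and Mag from −0.071 to 0.12. Genes of a few CPM rest on few reads, since 3 counts are at least 0.954 CPM here.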
